A study of Rattus norvegicus with 9 samples.

Results

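The genes described here encode the nuclear subunits of the mitochondrial respiratory chain and of ATP synthase, measured in pancreatic islets of diabetic rats. They were chosen by symbol: every gene whose name starts with Ndufa, Ndufb, Ndufc, Ndufs or Ndufv (complex I, without the Ndufaf assembly factors), Uqcr (complex III), Cox4 to Cox8 (complex IV) or Atp5 (complex V, ATP synthase), with Sdha, Sdhb, Sdhc and Sdhd (complex II) and Cyc1 (complex III). This gave 81 of the 14217 genes named by a probe set with 1 symbol, of which 36 fall under complex I, 4 under complex II, 8 under complex III, 17 under complex IV and 16 under complex V. Cox6c-ps1 is annotated as a pseudogene, and its probe set may also bind the transcript of its parent gene. Ndufa4 is counted under complex I by its symbol, although its protein is now known as part of complex IV, and Atp5if1 encodes the inhibitor of ATP synthase and not a subunit of it. Where a gene had several probe sets, the brightest on average over the 9 arrays stood for it. A further 7 probe sets that the annotation gives to a member and to another gene were left out.

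Islets came from male Zucker Diabetic Fatty rats of genotype fa/fa, which lack a working leptin receptor, become obese and develop diabetes, and all of them ate the Purina 5008 diet. The study randomised 24 animals at 5 weeks of age. The treated group ate rosiglitazone, a drug that activates the receptor PPAR gamma, mixed into the diet (3 mg per kg) from week 5, and was sampled at week 9. The withdrawal group had the same drug from week 5 to week 9 and was sampled at week 11, 2 weeks after it stopped. The untreated group was sampled at week 13. Each group had 3 arrays, which the labels call biological replicates. How many animals gave each RNA is not given in the sources used here, so a p-value measures the spread between these arrays. Age and treatment differed together and cannot be told apart in any comparison. No group of lean rats was analysed here.

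The respiratory chain passes electrons from NADH (complex I) and succinate (complex II) through complex III to oxygen at complex IV, and pumps protons across the inner mitochondrial membrane. ATP synthase uses the returning protons to make ATP. In beta cells this ATP closes potassium channels at the cell surface and so links glucose to insulin secretion. The nuclear genes of the chain are known targets of the factors NRF1 and NRF2 (an ETS-family factor, GABP) and ERR alpha, acting with the PGC-1 coactivators.

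Of the 81 genes, 72 had an entry in RefSeq's promoter table (assembly GRCr8), which holds 250 bases before and 50 after the start. The sequences below are the 160 bases before the start, written in the direction of transcription. They are examples from members described below (Ndufa11, Ndufa5, Uqcrc2 and Cox8a) and a muscle isoform (Cox8b). Whether a motif goes with a difference between groups was not tested. Capitals mark the NRF1 motif in Ndufa11 and Ndufa5, the ETS motif in Uqcrc2 and Cox8a, and a TATA box in Cox8b.
Ndufa11, chr9:1637454-1637613, plus strand: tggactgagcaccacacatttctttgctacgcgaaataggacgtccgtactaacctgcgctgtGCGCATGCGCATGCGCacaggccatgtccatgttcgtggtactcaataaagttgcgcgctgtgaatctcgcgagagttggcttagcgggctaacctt
Ndufa5, chr4:53971236-53971395, minus strand: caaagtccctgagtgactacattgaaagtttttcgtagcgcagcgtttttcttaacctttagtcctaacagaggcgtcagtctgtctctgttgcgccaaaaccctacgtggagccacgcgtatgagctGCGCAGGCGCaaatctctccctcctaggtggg
Uqcrc2, chr1:184599080-184599239, plus strand: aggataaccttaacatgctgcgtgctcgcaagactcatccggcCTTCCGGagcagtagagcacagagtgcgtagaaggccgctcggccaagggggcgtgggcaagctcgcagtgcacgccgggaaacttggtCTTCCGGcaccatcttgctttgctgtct
Cox8a, chr1:213833624-213833783, minus strand: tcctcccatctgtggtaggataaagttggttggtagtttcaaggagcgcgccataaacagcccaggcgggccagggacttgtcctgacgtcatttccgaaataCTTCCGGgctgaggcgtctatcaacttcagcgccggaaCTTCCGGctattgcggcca
Cox8b, chr1:205408274-205408433, minus strand: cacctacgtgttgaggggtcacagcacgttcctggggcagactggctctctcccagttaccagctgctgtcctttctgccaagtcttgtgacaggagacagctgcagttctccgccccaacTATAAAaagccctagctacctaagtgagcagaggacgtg
Ndufa11 had 2 overlapping NRF1 matches, which began 97 and 91 bases before the start, and Ndufa5 had 1, which began 32 bases before it. Uqcrc2 and Cox8a each had 2 ETS matches, as the reverse complement of CCGGAAG, at 117 and 28 bases and at 57 and 19 bases before the start. For each gene the first promoter entry in the table was used, and the 27457 genes searched were not limited to protein-coding genes. On both strands of the whole window, the NRF1 motif (as in the capitals above) was present in 13 of the 72 promoters (18.1%). Over all 27457 genes the share was 4.71%. The ETS motif CCGGAAG was present in 20 (27.8%, against 9.22%) and the YY1 motif AAGATGGC in 16 (22.2%, against 3.44%). The ERR motif TCAAGGTCA was found in 2 (2.78%, against 0.412%). A TATA box (TATAAA) was found in 8 (11.1%, against 14.3%) and the CCAAT box (CCAAT) in 25 (34.7%, against 37.7%). The median GC content of the members' windows was 56.0%, against 52.3% over all genes searched. These are matches of letters in a window and say nothing about binding in the islets.

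Values are log2 values as deposited, and they were not on 1 common scale. The brighter a probe set was, the larger the difference between groups tended to be. Treated against untreated arrays, the median over the brightest decile of the 20695 tested probe sets was 0.53, against −0.03 in the dimmest decile. For withdrawal against treated arrays these medians were −0.72 and 0.06. Most members lie in that bright range: 79 of 81 passed the filter on dim probe sets, and 60 of the 79 were in the brightest decile. The 18 hybridisation control probe sets, whose bacterial and phage transcripts do not come from islets, were at a median of 0.64 (treated against untreated), −0.22 (withdrawal against untreated) and −0.83 (withdrawal against treated). Their group means were 10.32 (treated), 9.51 (withdrawal) and 9.75 (untreated), and what set these levels was not tested. Within the treated group, the first array had the lowest controls (9.79, against 10.66 and 10.50) and the highest mean over the members. The main results are therefore given on the deposited scale and after quantile normalization, which gives all arrays the same distribution. A member is called where limma's Benjamini-Hochberg adjusted p is under 0.05.

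On the deposited scale, the mean over the tested members was 9.63 ± 0.22 (SD, n = 3 arrays) in the treated group. It was 8.93 ± 0.13 in the withdrawal group and 9.21 ± 0.18 in the untreated group. The treated arrays gave 9.88, 9.48 and 9.52, the withdrawal arrays 8.91, 8.81 and 9.06, and the untreated arrays 9.21, 9.02 and 9.39. All treated arrays were above all others on this scale. After quantile normalization the means were 9.26 ± 0.005, 9.18 ± 0.03 and 9.31 ± 0.07, so the treated group lay between the other 2. On that scale the treated arrays gave 9.26, 9.26 and 9.27, the withdrawal arrays 9.20, 9.14 and 9.20, and the untreated arrays 9.24, 9.33 and 9.38. All withdrawal arrays were thus below all others, and treated and untreated arrays overlapped. Fewer islet cells in a preparation and less of these RNAs per cell cannot be told apart in such bulk samples.

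**Figure D1:**
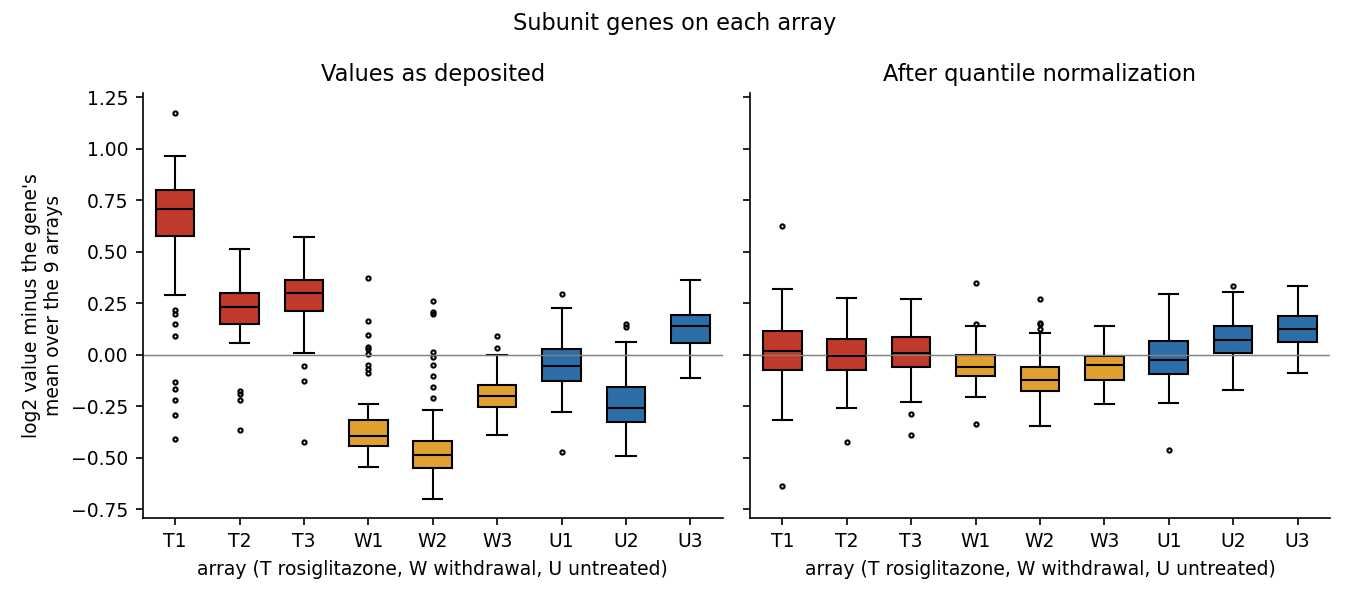
Box plots of the 79 tested members on each of the 9 arrays, as log2 value minus the gene's own mean over all arrays (box: quartiles; line: median; whiskers: 1.5 times the box height; points: members beyond). As deposited, the 3 treated arrays lie above the others and the withdrawal group is the lowest on average; after quantile normalization the boxes of the 3 groups overlap.

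The first comparison asked how subunit expression in islets under rosiglitazone at 9 weeks differed from that in untreated islets at 13 weeks. As deposited, 33 of the 79 tested members rose and none fell, against 20.9% of all tested probe sets that rose and 28.1% called in either direction. The members' median difference was 0.46, against 0.16 over all tested probe sets and 0.53 in the brightest decile, of which 54.5% rose. By complex, 17 of 36 members rose in complex I, 0 of 4 in complex II and 5 of 8 in complex III. In complexes IV and V, 3 of 15 and 8 of 16 rose. At an unadjusted p under 0.05, 2 members of complex II passed, as did 8765 of the 20695 tested probe sets. The groups did not overlap for 49 members that were higher on treated arrays and 1 that was lower, against 31.2% and 11.7% of all tested probe sets; this direction turned after quantile normalization. The count varied with the arrays in the fit. Without the second untreated array, 4 members were called (Ndufa11, Ndufb2, Uqcrc2 and Atp5f1c), and without the first untreated array, 16. The count was 21 without the first withdrawal array, 22 without the first treated array and 15 when the withdrawal arrays were left out of the fit. The shares of all tested probe sets called in these fits are not given here.

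After quantile normalization, 1 member rose (Ndufa11) and 3 fell (Cox8a, Cox4i2 and Ndufc1) on treated arrays, 5.06% of the 79, against 17.2% of all tested probe sets (7.75% higher and 9.44% lower) and 14.8% of the brightest decile. By complex, Ndufa11 and Ndufc1 belong to complex I and Cox8a and Cox4i2 to complex IV. No member of complexes II, III and V was called by limma. In these complexes 0, 1 and 1 members had an unadjusted p under 0.05, against 7065 of the 20695 tested probe sets. The groups did not overlap for 10 members that were higher on treated arrays and 23 that were lower, against 17.8% of all tested probe sets in each direction. The median difference was −0.07. In 48 of the 79 members the sign of the difference was the opposite of that on the deposited scale. After cyclic loess normalization, 1 member rose (Ndufa11) and 3 fell (Cox8a, Cox4i2 and Ndufs4), against 18.5% of all tested probe sets called (7.79% higher and 10.7% lower). Ndufa11 was the 1 member called on all 3 scales.

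**Figure D2:**
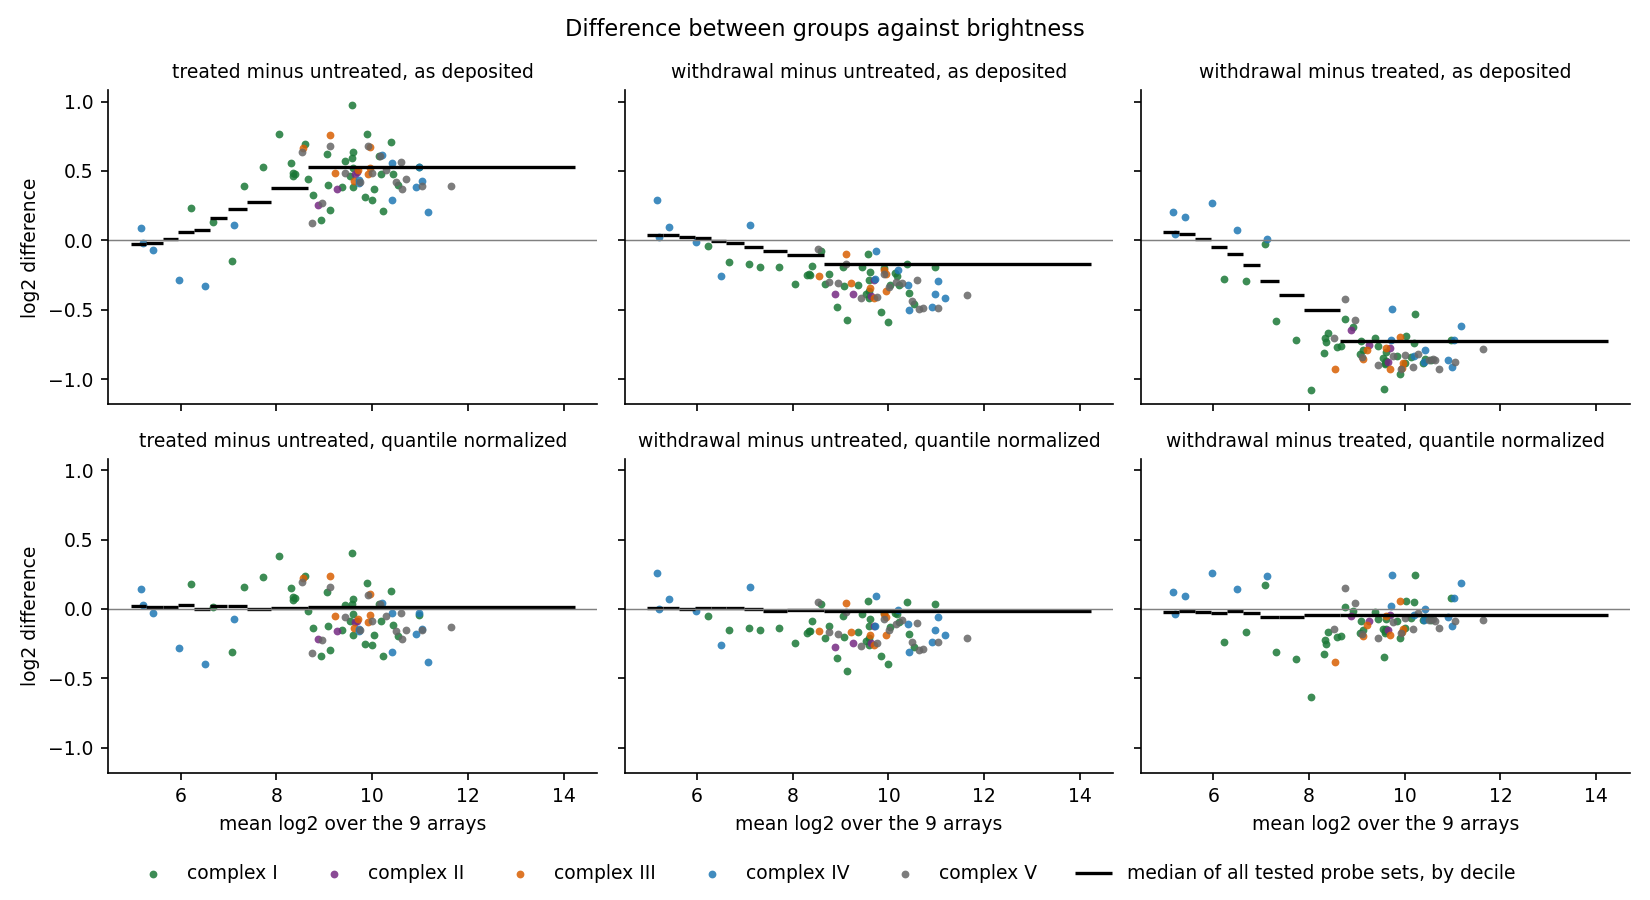
Difference between groups (log2) against mean log2 over the 9 arrays for each tested member, coloured by complex, with the median of all tested probe sets in each decile by brightness as black bars, as deposited (top) and after quantile normalization (bottom). As deposited, the members lie along bars that reach 0.53 and −0.72 at the bright end; after quantile normalization the bars lie near 0 and the members scatter around them.

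Ndufa11 encodes an accessory subunit in the membrane arm of complex I. Its log2 values as deposited were 10.54, 10.08 and 10.15 on treated, 9.17, 9.03 and 9.35 on withdrawal and 9.30, 9.08 and 9.46 on untreated arrays. All treated arrays were above all others, and the other 2 groups overlapped. The difference between treated and untreated arrays was 0.98 ± 0.16 (SE, n = 3 per group; adjusted p = 0.00253), which is 1.97-fold. After quantile normalization the values were 9.79, 9.81 and 9.83 on treated, 9.50, 9.39 and 9.51 on withdrawal and 9.33, 9.42 and 9.47 on untreated arrays. The treated arrays thus stayed above all others, and the difference was 0.41 ± 0.09 (adjusted p = 0.0163), or 1.33-fold. The call after quantile normalization was kept in 7 of 9 fits that left out 1 array and was lost without the first or the second untreated array (highest adjusted p = 0.0615).

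The other members of complex I that rose on the deposited scale did not pass after quantile normalization. Ndufb2 and Ndufb4, accessory subunits of the membrane arm, differed by 0.76 ± 0.14 (adjusted p = 0.00429) and 0.71 between treated and untreated arrays as deposited, and by 0.19 and 0.13 after quantile normalization. Ndufs1, a core subunit that carries iron-sulfur clusters, differed by 0.76 ± 0.21 (adjusted p = 0.0204) and by 0.39 ± 0.13 (adjusted p = 0.0625). Without the second untreated array, Ndufs1, Ndufa5, Ndufs7, Ndufb4 and Uqcr11 lost their call on the deposited scale.

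In complex III, Uqcrc2, a core protein of the complex, had log2 values of 9.84, 9.52 and 9.61 on treated, 8.78, 8.69 and 8.94 on withdrawal and 9.02, 8.65 and 9.03 on untreated arrays as deposited. The treated arrays were above all others, with a difference from untreated arrays of 0.76 ± 0.15 (adjusted p = 0.0052). After quantile normalization the difference was 0.24 (adjusted p = 0.103). A second, dimmer probe set of Uqcrc2 differed by 0.28 as deposited (adjusted p = 0.0903) and by −0.04 after quantile normalization. Cyc1, which encodes cytochrome c1, differed by 0.48 as deposited (adjusted p = 0.0634) and by −0.05 after quantile normalization.

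In complex V, Atp5f1c, the gamma subunit of the central stalk, had 10.57, 10.36 and 10.42 on treated, 9.52, 9.42 and 9.63 on withdrawal and 9.77, 9.61 and 9.92 on untreated arrays as deposited. All treated arrays were higher than all others, and the difference from untreated arrays was 0.68 ± 0.13 (adjusted p = 0.00457). After quantile normalization it was 0.10 (adjusted p = 0.541), with overlapping groups. The catalytic subunits Atp5f1a (alpha) and Atp5f1b (beta) differed by 0.44 and 0.39 as deposited, which did not pass (adjusted p = 0.0809 and 0.105), and by −0.15 and −0.13 after quantile normalization. Atp5if1, the inhibitor that blocks the enzyme from running backwards, rose by 0.64 ± 0.19 (adjusted p = 0.0297) as deposited and differed by 0.19 after quantile normalization.

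The 3 members that fell on treated arrays after quantile normalization were not called between treated and untreated arrays on the deposited scale. Cox8a, a small subunit of complex IV in its widely expressed form, had 11.66, 11.35 and 11.33 on treated, 10.82, 10.69 and 10.97 on withdrawal and 11.20, 11.06 and 11.47 on untreated arrays as deposited, where treated and untreated arrays overlapped. After quantile normalization it had 10.94, 11.03 and 10.98 on treated, 11.24, 11.17 and 11.11 on withdrawal and 11.23, 11.47 and 11.40 on untreated arrays. On that scale the treated arrays were the lowest, at −0.38 ± 0.10 against untreated arrays (adjusted p = 0.0277), while the deposited difference was 0.20 (adjusted p = 0.314). This call was kept in 6 of 9 fits that left out 1 array, and lost without the third treated, the second untreated or the third untreated array.

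Cox4i2, the isoform of complex IV subunit 4 known from lung and from cells at low oxygen, had 6.28, 6.28 and 6.54 on treated, 6.45, 6.51 and 6.36 on withdrawal and 6.80, 6.65 and 6.64 on untreated arrays as deposited. It was lower on all treated than on all untreated arrays, by −0.33 ± 0.12 (adjusted p = 0.0635), and by −0.40 ± 0.12 after quantile normalization (adjusted p = 0.0396). Its direction was thus the same on both scales, but the call after quantile normalization was kept in 1 of 9 fits that left out 1 array. Ndufc1, a small accessory subunit of complex I, differed by 0.15 as deposited and by −0.34 ± 0.11 after quantile normalization (adjusted p = 0.049), a call kept in 2 of 9 such fits.

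**Figure D3:**
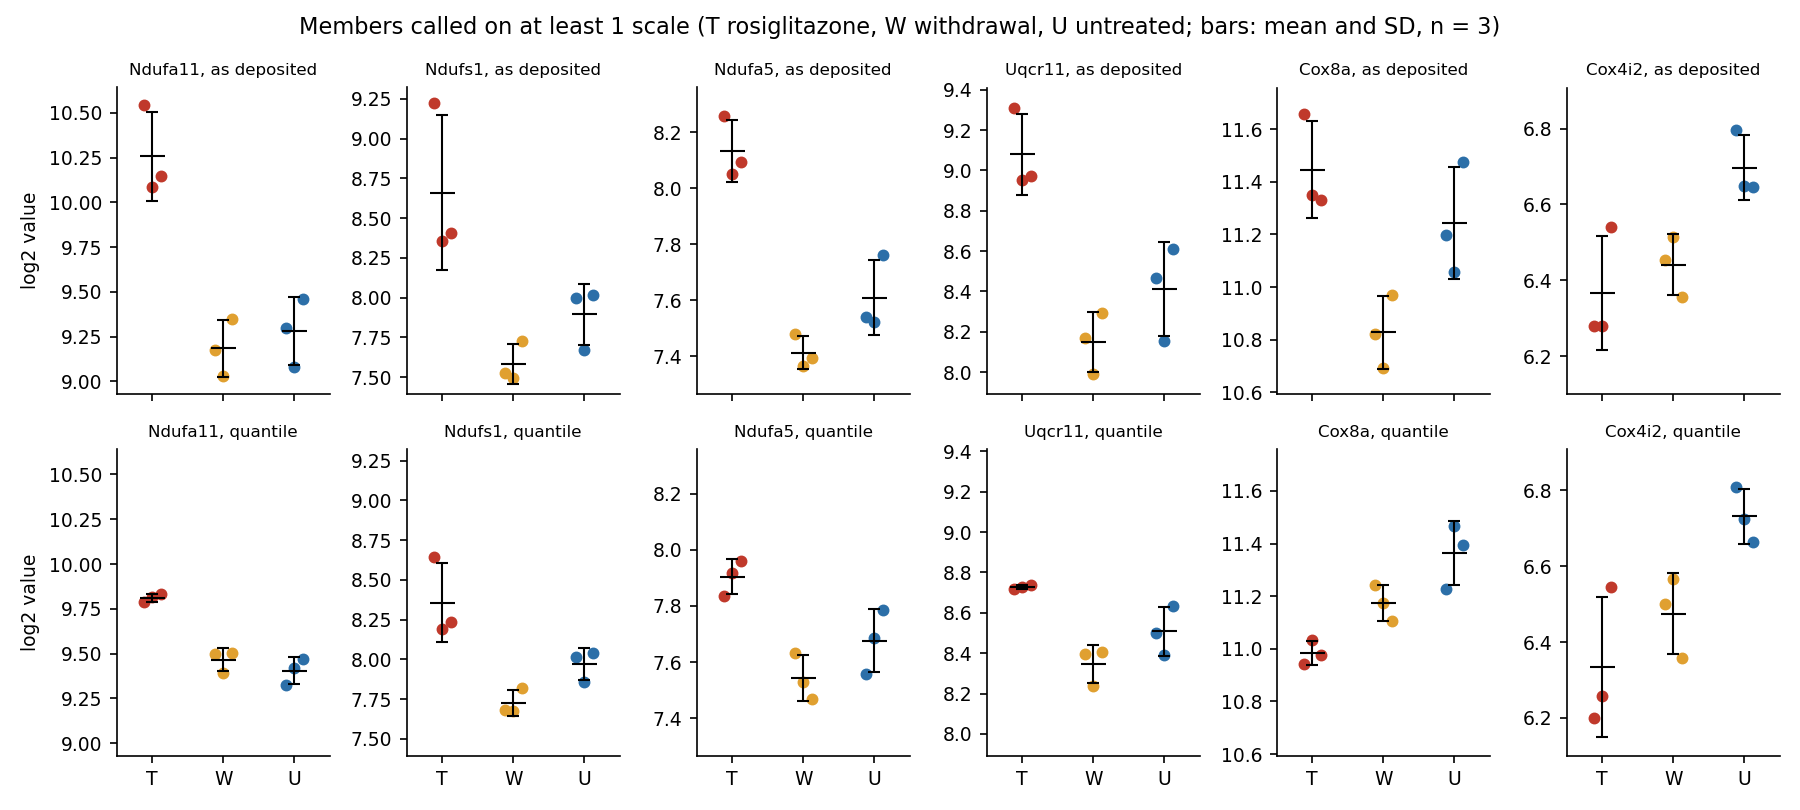
Log2 values of 6 members on each array, as deposited (top) and after quantile normalization (bottom); points are arrays, bars the mean and SD of 3. Ndufa11 is highest on treated arrays on both scales, whereas Cox8a is lowest there only after quantile normalization, at −0.38 against untreated arrays.

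The second comparison asked what had become of these genes 2 weeks after the drug stopped, against the treated islets. As deposited, 70 of the 79 members fell and none rose, against 32.6% of all tested probe sets that fell and 43.8% called in either direction. The median difference was −0.79, against −0.19 over all tested probe sets and −0.72 in the brightest decile, of which 78.7% fell. The 70 were 33 of 36 members in complex I, 4 of 4 in complex II, 8 of 8 in complex III, 9 of 15 in complex IV and 16 of 16 in complex V. The groups did not overlap for 72 members, all lower after withdrawal, against 39.0% of all tested probe sets that were lower without overlap. In all 9 fits that left out 1 array, 62 of the 70 were called. The 9 members not called were Ndufa4l2, Ndufb8, Ndufs4, Cox4i2, Cox5a, Cox6a2, Cox6c-ps1, Cox7a1 and Cox8b.

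After quantile normalization, 5 members fell after withdrawal (6.33% of 79, against 14.6% of all tested probe sets and 8.45% of the brightest decile that fell), and none rose. In either direction, 29.1% of all tested probe sets and 17.8% of the brightest decile were called. The groups did not overlap for 29 members that were lower after withdrawal and 6 that were higher, against 24.3% and 20.7% of all tested probe sets. The 5 that fell were Ndufs1, Uqcr11, Ndufa5, Ndufa11 and Ndufs7, so 4 of the 5 belong to complex I and 1 to complex III. These are 11.1% of the tested members of complex I and 12.5% of those of complex III, both below the 14.6% of all tested probe sets. The first 4 also fell after cyclic loess normalization, where no other member was called (28.5% of all tested probe sets were). The members' median was −0.08. After centring each array on its hybridisation controls the median was 0.016, and the 4 members called (Cox4i2, Cox6a2, Cox6c-ps1 and Cox8b) were higher after withdrawal, against 30.2% of all tested probe sets that were.

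Ndufs1 had 9.22, 8.35 and 8.41 on treated, 7.53, 7.49 and 7.73 on withdrawal and 8.0, 7.67 and 8.02 on untreated arrays as deposited. The first treated array stood well above the other 2. Withdrawal arrays were lower than treated arrays by −1.08 ± 0.21 (adjusted p = 0.00254), or 2.11-fold. After quantile normalization the values were 8.64, 8.19 and 8.24 on treated, 7.68, 7.67 and 7.82 on withdrawal and 8.01, 7.86 and 8.04 on untreated arrays. The order of the groups was the same on both scales, and neither pair with the treated group overlapped. The quantile-normalized difference between withdrawal and treated arrays was −0.63 ± 0.13 (adjusted p = 0.00648), or 1.55-fold, and was called in 9 of 9 fits that left out 1 array (highest adjusted p = 0.034).

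Uqcr11, which encodes the smallest subunit of complex III, had 9.31, 8.95 and 8.97 on treated, 8.17, 7.99 and 8.29 on withdrawal and 8.47, 8.15 and 8.61 on untreated arrays as deposited. After quantile normalization it had 8.72, 8.73 and 8.74 on treated, 8.40, 8.24 and 8.41 on withdrawal and 8.50, 8.39 and 8.63 on untreated arrays. On both scales the treated arrays were above all others, and withdrawal and untreated arrays overlapped. Withdrawal minus treated was −0.93 ± 0.16 (adjusted p = 0.00146) as deposited and −0.38 ± 0.10 (adjusted p = 0.0189) after quantile normalization, a call lost without the second withdrawal array.

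Ndufa5, an accessory subunit of the arm of complex I that projects into the matrix, had 8.26, 8.05 and 8.09 on treated, 7.48, 7.37 and 7.39 on withdrawal and 7.54, 7.52 and 7.76 on untreated arrays as deposited. The treated arrays were again the highest. Withdrawal minus treated was −0.72 ± 0.12 (adjusted p = 0.00151) as deposited and −0.36 ± 0.10 (adjusted p = 0.0233) after quantile normalization. For Ndufa11 the corresponding differences were −1.07 ± 0.16 and −0.35 ± 0.09 (adjusted p = 0.0204 after quantile normalization). Ndufs7, a core subunit with an iron-sulfur cluster next to the ubiquinone site, differed by −0.81 ± 0.14 and −0.33 ± 0.10 (adjusted p = 0.0349 after quantile normalization). Leaving out 1 array at a time, the quantile-normalized calls were kept in 7 of 9 fits for Ndufa11, 6 of 9 for Ndufa5 and 3 of 9 for Ndufs7.

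In complex II, whose subunits oxidise succinate to fumarate, all 4 genes fell after withdrawal as deposited, and none passed after quantile normalization. On that scale no member of complex II had an unadjusted p under 0.05, against 8907 of the 20695 tested probe sets. Sdha, the flavoprotein, had 9.25, 9.12 and 9.16 on treated, 8.47, 8.41 and 8.72 on withdrawal and 9.10, 8.65 and 9.02 on untreated arrays as deposited. Treated and withdrawal arrays did not overlap, and the difference was −0.65 ± 0.14 (adjusted p = 0.00475). After quantile normalization it was −0.05. Sdhb, the iron-sulfur subunit, differed by −0.78 ± 0.19 as deposited and −0.04 after quantile normalization.

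**Figure D4:**
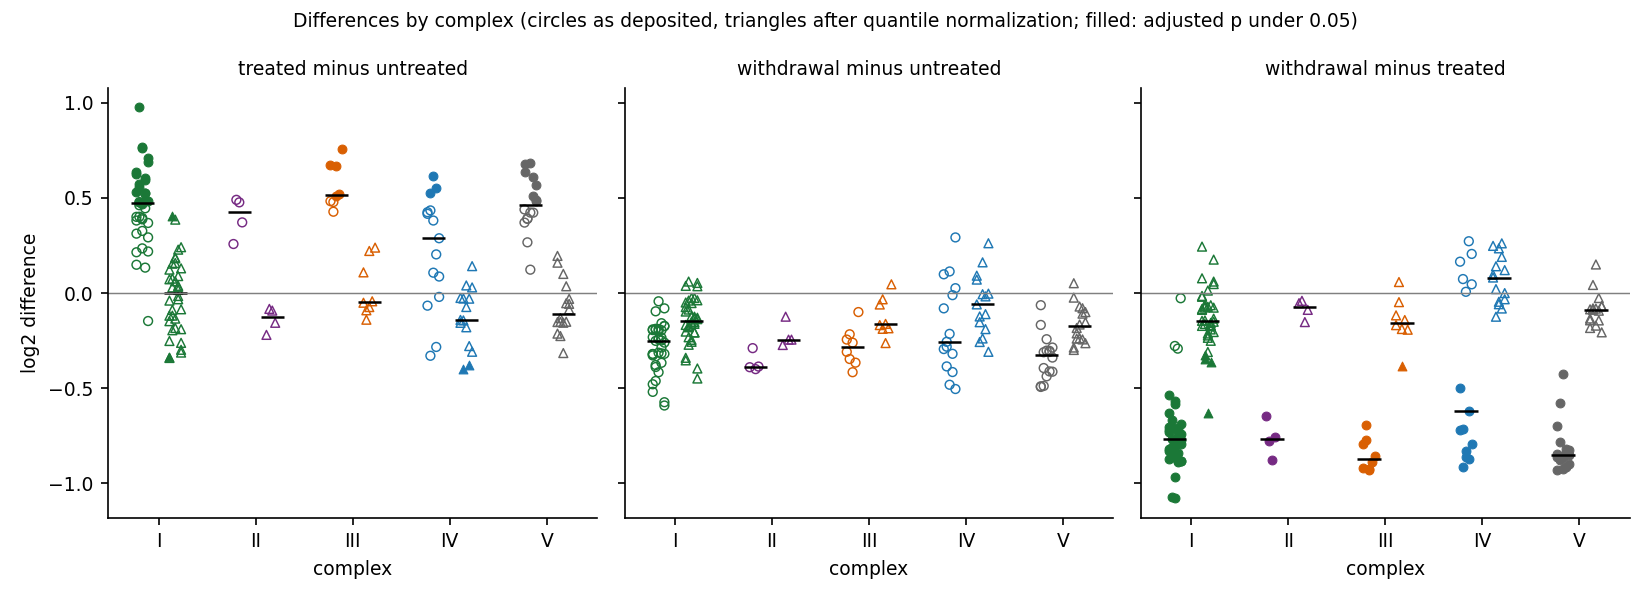
Log2 difference of each tested member by complex in the 3 comparisons, as deposited (circles) and after quantile normalization (triangles); filled symbols had an adjusted p under 0.05 and the short lines are medians. As deposited the median of withdrawal minus treated over all members is −0.79, and after quantile normalization it is −0.08.

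The third comparison set islets 2 weeks after withdrawal, at 11 weeks, against untreated islets at 13 weeks. No member was called by limma on any of the 3 scales, against 0.159% of all tested probe sets as deposited (0.00483% higher and 0.155% lower), 0.42% after quantile normalization and 0.271% after cyclic loess. At an unadjusted p under 0.05, 26 members passed as deposited, 22 after quantile normalization and 14 after cyclic loess. Of the 20695 tested probe sets, 1553, 2170 and 1713 did so on these scales. The differences leaned one way: 75 of 79 were negative as deposited (median −0.29, against −0.02 over all tested probe sets and −0.17 in the brightest decile) and 69 of 79 after quantile normalization (median −0.15, against −0.01 in the brightest decile). The 79 differences share arrays, so their common sign is a description. Without overlap, 24 members were lower after withdrawal and 2 higher as deposited, against 10.3% and 7.65% of all tested probe sets. After quantile normalization, 30 were lower and 2 higher, against 11.6% and 9.75%. With arrays weighted by their fit, 50 members fell in this comparison as deposited, against 12.1% of all tested probe sets that fell in that fit, 3.73% that rose and 15.8% called in either direction.

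The largest of these differences were in Ndufv2, a core subunit of complex I with an iron-sulfur cluster, and Ndufa2, an accessory subunit of the same arm. Ndufv2 had 10.82, 10.19 and 10.16 on treated, 9.52, 9.35 and 9.65 on withdrawal and 10.12, 9.86 and 10.30 on untreated arrays as deposited. Withdrawal arrays lay below all others, at −0.59 ± 0.19 against untreated arrays (adjusted p = 0.437) and at −0.40 ± 0.10 after quantile normalization (adjusted p = 0.15). Ndufa2 had 9.86, 9.25 and 9.28 on treated, 8.68, 8.48 and 8.84 on withdrawal and 9.22, 9.06 and 9.44 on untreated arrays. Its withdrawal arrays were also the lowest, at −0.57 ± 0.18 and, after quantile normalization, −0.45 ± 0.11 (adjusted p = 0.119). Both genes, with Cox6a1, passed on the deposited scale when the treated arrays were left out of the fit. Without the first treated array, Ndufv2 and Ndufa2 passed on the deposited scale and also after quantile normalization. The shares of all tested probe sets that passed in these fits are not given here.

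Over all 3 groups, limma's F test called 69 members as deposited, against 37.0% of all tested probe sets, and 7 after quantile normalization, against 24.5%. After cyclic loess it called 6, against 23.4%. Those called after quantile normalization were Ndufa11, Ndufs1, Ndufa2, Ndufv2, Ndufc1, Uqcr11 and Cox8a, of which 5 belong to complex I. They are 13.9% of its tested members, against the 24.5% of all tested probe sets. No member of complex II or complex V was called by the F test after quantile normalization. On that scale 0 members of complex II and 4 of complex V had an unadjusted p under 0.05, against 8303 of the 20695 tested probe sets.

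Of the 9 members not called between withdrawal and treated arrays on the deposited scale, 6 belonged to complex IV (Cox4i2, Cox5a, Cox6a2, Cox6c-ps1, Cox7a1 and Cox8b), and 4 of these are isoforms known from other tissues. Cox6a2, Cox7a1 and Cox8b are the heart and skeletal muscle forms, and their probe sets were dim. Cox6a2 ranged from 5.23 to 5.61 over the 9 arrays, Cox7a1 from 4.99 to 5.37 and Cox8b from 4.69 to 5.53. Their differences between groups lay between −0.07 and 0.29 as deposited and between −0.03 and 0.26 after quantile normalization, with none called on either scale. The testis forms Cox6b2 and Cox7b2 did not pass the filter on dim probe sets. Cox6c-ps1 differed by −0.28 between treated and untreated arrays on both scales (adjusted p = 0.196 and 0.204).

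The widely expressed partner forms had bright probe sets. Cox4i1, the common form of subunit 4, had 11.65, 11.27 and 11.34 on treated, 10.65, 10.54 and 10.91 on withdrawal and 11.13, 10.71 and 11.14 on untreated arrays as deposited. The treated arrays were the highest, and the difference from withdrawal arrays was called (withdrawal minus treated −0.72 ± 0.16, adjusted p = 0.00514). After quantile normalization that difference was 0.08. Ndufa4l2, a relative of Ndufa4 that is known to rise at low oxygen, did not pass in any comparison, and its withdrawal minus treated difference was −0.28 as deposited and −0.24 after quantile normalization. Ndufa4 itself fell by 0.86 (SE 0.18) after withdrawal as deposited, and its difference was −0.08 after quantile normalization. Cox7a2l, a factor of supercomplex assembly, differed by −0.50 as deposited (adjusted p = 0.0286) and by 0.25 after quantile normalization (adjusted p = 0.102).

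For 8 members at least 1 more probe set gave a further reading. The dimmer probe set of Ndufa7, an accessory subunit of complex I, was called on all 3 scales in both comparisons with the treated arrays. Its values after quantile normalization were 6.60, 6.50 and 6.35 on treated, 5.84, 5.69 and 5.66 on withdrawal and 6.03, 5.84 and 5.99 on untreated arrays. Treated arrays were above all others, by 0.53 ± 0.11 against untreated arrays (adjusted p = 0.0102), and withdrawal minus treated was −0.75 ± 0.11 (adjusted p = 0.00163). The brighter probe set of Ndufa7 differed by −0.15 and −0.02 in the same comparisons, and neither passed. The dimmer probe set of Ndufv3 fell after withdrawal on both scales, by 0.41 as deposited (adjusted p = 0.0344) and by 0.46 after quantile normalization (adjusted p = 0.022). The dimmer probe set of Sdhd, a membrane anchor of complex II, rose on treated against untreated arrays as deposited, by 0.46 (adjusted p = 0.0383), where no brightest probe set of complex II was called. Its withdrawal minus treated difference was −0.72 (adjusted p = 0.00324), and after quantile normalization these differences were 0.06 and −0.23 (adjusted p = 0.682 and 0.0823). The probe sets of Atp5me, the e subunit of ATP synthase, were called in opposite directions between withdrawal and treated arrays, at −0.43 for the brighter (adjusted p = 0.0134) and 0.38 for the dimmer (adjusted p = 0.0433) as deposited. After quantile normalization both were positive, and only the dimmer passed (0.46, adjusted p = 0.0306).

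Other mitochondrial genes were read beside the members from lists of pathway genes, in which a gene was again its brightest probe set. Their counts stand beside the shares of all tested probe sets that rose and fell on treated against untreated arrays, 20.9% and 7.24% as deposited and 7.75% and 9.44% after quantile normalization. No gene of the list of mitochondrially encoded subunits was matched by a single-symbol probe set. Of the assembly factors, 15 of 41 rose and 1 fell on treated against untreated arrays as deposited, and 6 rose and 3 fell after quantile normalization. Of the genes for protein import into mitochondria, 15 of 21 rose as deposited and 3 after quantile normalization. Of the citric acid cycle and pyruvate dehydrogenase genes, 6 of 16 rose as deposited, and 2 rose and 2 fell after quantile normalization. Of the carriers, shuttles and electron donors, 11 of 22 rose as deposited, and 3 rose and 2 fell after quantile normalization.

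For withdrawal against treated arrays the shares of all tested probe sets that fell and rose were 32.6% and 11.2% as deposited and 14.6% and 14.5% after quantile normalization. Of the assembly factors, 22 fell and 2 rose as deposited, and 12 fell and 4 rose after quantile normalization. Of the import genes, 17 fell as deposited and 6 after quantile normalization, where none rose. Of the carriers, shuttles and electron donors, 16 fell as deposited, and 6 fell and 1 rose after quantile normalization. Of the citric acid cycle and pyruvate dehydrogenase genes, 13 fell as deposited and 2 after quantile normalization. Idh2, which makes NADPH in mitochondria, rose on treated arrays by 0.96 as deposited and by 0.45 after quantile normalization (adjusted p = 0.0103). Coq9, needed for ubiquinone synthesis, rose by 0.61 and 0.35 (adjusted p = 0.0449), the second a call lost in each of 9 fits that left out 1 array, and fell after withdrawal by 0.88 and 0.60 (adjusted p = 0.00371). Pdhb, a subunit of pyruvate dehydrogenase, was lower after withdrawal than in untreated islets at −0.86 (adjusted p = 0.0388) and −0.75 after quantile normalization (adjusted p = 0.00455), and the deposited call was kept in 3 of 9 fits that left out 1 array.

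Of 22 tested regulators of mitochondrial biogenesis, 6 rose and 2 fell on treated arrays as deposited, and 3 rose and 3 fell after quantile normalization. Of all tested probe sets, 20.9% rose and 7.24% fell as deposited, and 7.75% rose and 9.44% fell after quantile normalization. After withdrawal, against treated arrays, 7 regulators fell and 2 rose as deposited, and 5 fell and 2 rose after quantile normalization. The shares of all tested probe sets that fell and rose were 32.6% and 11.2%, and 14.6% and 14.5% after quantile normalization. Ppargc1a encodes PGC-1 alpha, a coactivator known to drive transcription of the respiratory chain. Its log2 values as deposited were 6.34, 6.12 and 5.95 on treated, 7.24, 7.16 and 6.89 on withdrawal and 6.99, 7.26 and 6.78 on untreated arrays. All treated arrays were below all others, which is the reverse of most members on this scale. The difference from untreated arrays was −0.87 as deposited (adjusted p = 0.0042) and −0.95 after quantile normalization (adjusted p = 0.00495), and after withdrawal it rose by 0.96 and 1.08. These calls were kept in 9 of 9 fits that left out 1 array on both scales.

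Ppargc1b, its paralogue PGC-1 beta, had 6.52, 6.85 and 7.18 on treated, 7.69, 7.80 and 7.68 on withdrawal and 7.39, 7.61 and 7.42 on untreated arrays as deposited. It was likewise lowest on treated arrays, by −0.62 (adjusted p = 0.0157) and, after quantile normalization, −0.77 (adjusted p = 0.0141), a call lost on both scales without the second untreated array. Tfam, which packages and transcribes mitochondrial DNA, ran the other way. It rose on treated arrays by 0.66 as deposited (adjusted p = 0.0132, a call also lost without the second untreated array), was 0.29 higher after quantile normalization (adjusted p = 0.0804), and fell after withdrawal by 1.0 and 0.55 (adjusted p = 0.00463 after quantile normalization). Foxred1, an assembly factor of complex I, was lower on treated arrays by −0.76 and −0.74 (adjusted p = 0.00497 and 0.00774) and rose by 1.02 after withdrawal on both scales.

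**Figure D5:**
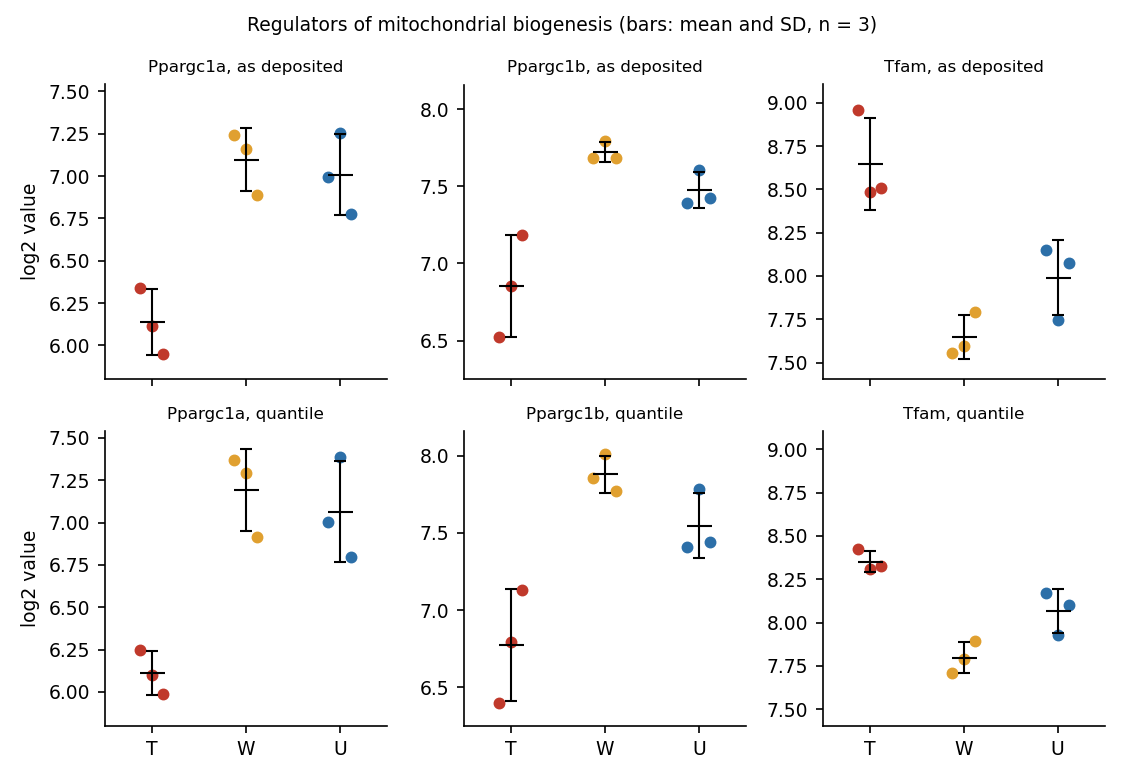
Log2 values of Ppargc1a, Ppargc1b and Tfam on each array, as deposited (top) and after quantile normalization (bottom); points are arrays, bars the mean and SD of 3. On both scales all treated arrays lie below the others for Ppargc1a and Ppargc1b and above the others for Tfam.

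Marker lists of the cells in the preparations differed in direction. For withdrawal minus treated as deposited, the median difference was −1.01 over beta cell markers and −0.95 over markers of other islet hormone cells. It was also negative over erythrocyte (−0.94), duct (−0.57), muscle (−0.48), endothelial (−0.40) and acinar (−0.06) markers. Macrophage and myeloid (0.37), stellate and matrix (0.20), lymphocyte (0.57) and adipocyte (0.57) markers had a positive median. The erythrocyte and adipocyte medians rest on 2 tested markers each, and the adipocyte markers were dim (group means from 5.06 to 5.63). The muscle median rests on 4, of which 1 rose and 1 fell. After quantile normalization the endothelial median was 0.10 and the duct median −0.04. Over all tested probe sets the median was −0.72 in the brightest decile and 0.06 in the dimmest. Beta cell markers had group means from 10.48 to 11.22 and lymphocyte markers from 5.43 to 6.04. As deposited, 20.9% of all tested probe sets rose on treated against untreated arrays and 32.6% fell after withdrawal. After quantile normalization these shares were 7.75% and 14.6%, and 14.5% rose after withdrawal (11.2% as deposited). Of 9 matched beta cell markers, 5 rose on treated against untreated arrays as deposited and 1 after quantile normalization. After withdrawal 6 fell as deposited and 3 after quantile normalization. After cyclic loess, 3 were higher and 2 lower after withdrawal, and the group means were 10.79 (treated), 10.78 (withdrawal) and 10.80 (untreated). Their mean ran from 11.20 to 11.25 on treated, 10.40 to 10.57 on withdrawal and 10.55 to 10.77 on untreated arrays as deposited. Of 10 tested macrophage and myeloid markers, 1 rose after withdrawal against treated arrays as deposited and 6 after quantile normalization. Their mean ran from 7.28 to 8.95 on treated, 8.41 to 8.64 on withdrawal and 7.94 to 8.13 on untreated arrays as deposited. Of 10 stellate and matrix markers, none rose in that comparison as deposited and 8 after quantile normalization. The 16 acinar markers, from exocrine cells, were bright on all arrays (means from 12.99 to 13.41 as deposited). None of them was called by limma between withdrawal and treated arrays as deposited or after quantile normalization, and 14 rose after cyclic loess. Their median differences on these scales were −0.06, 0.02 and 0.87. Of 6 markers of other islet hormone cells, 3 rose on treated against untreated arrays and 4 fell after withdrawal, on both scales. Of 6 tested lymphocyte markers, 3 were lower on treated than on untreated arrays and 3 rose after withdrawal, on both scales. The 3′ minus 5′ log2 difference of Actb, a measure of RNA integrity and labelling, was 0.71 to 0.89 on treated, 0.95 to 1.06 on withdrawal and 0.97 to 1.12 on untreated arrays, so it was lower on all treated arrays. The same difference of Gapdh overlapped between the groups, at 0.57 to 0.70 on treated, 0.56 to 0.87 on withdrawal and 0.65 to 0.86 on untreated arrays. The part of cell makeup and of RNA integrity in the members' differences was not tested.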

How the data were processed

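Islet RNA from 9 arrays was analysed, 3 per group. The deposited table holds 1 value per probe set and array, which the values show to be on a log2 scale; the authors' tools, per the submitters' processing notes, were RMA and MAS5, with roles and versions not given in the sources used here. Gene symbols came from the platform annotation, brought up to date with RefSeq's GRCr8 gene table (all 81 members matched by gene number). Of 31099 probe sets, 57 controls were left out and then the lowest 33.3% by mean log2, which left 20695. Group differences came from limma 3.58.1 (R 4.3.3; lmFit, eBayes, a term for each group and no covariate, fitted on all 9 arrays together), with Benjamini-Hochberg adjustment over the 20695 and a threshold of 0.05. The script was tested on data simulated with the spread of the deposited values, in which few probe sets changed. Between treated and untreated arrays it called 11% of log2 changes of 0.5 and 79% of changes of 1. With few changes the Benjamini-Hochberg cut-off is stricter than in the deposited values, where 28.1% of tested probe sets were called in that comparison. These shares are therefore not the power of that comparison. A member that was not called may still differ. Python 3.11.15 and matplotlib 3.10.9 made the figures.

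Array signal, not read depth, sets the precision, and 3 arrays a group limit it. Quantile and cyclic loess normalization were applied to the deposited log2 values as alternatives, with the others of the closing section. Centring on hybridisation controls, and quantile normalization combined with a left-out array or a block, were added after the data were seen. The members, gene lists, tests and printed promoters were chosen with earlier results of these data known. Named members were up to 5 with the largest positive and negative difference per comparison among called members without overlap, up to 4 per complex by the F test, complex II with Cyc1, tissue isoforms, members with probe sets called in opposite directions and those that failed the filter. Others (Ndufs7, Ndufc1, Ndufv2, Ndufa2, Ndufs4, Atp5f1b, Atp5if1, Cox5a, Cox6c-ps1, and the further probe sets of Ndufa7, Ndufv3, Sdhd and Atp5if1) were named after their values were seen. Pathway lists give up to 3 genes each by the F test. Same-numbered arrays did not all deviate together (correlations from −0.283 to 0.504), so the numbers were not taken to pair samples.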

Additional observations from a re-analysis of the deposited data

How the results depend on the processing

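The scale decided most results, and the cause of its effect was not tested. Between treated and untreated arrays, 33 members were called as deposited, 4 after quantile or cyclic loess normalization, 0 after centring on the control probe sets (limma) and 15 with only the 6 arrays compared, and the median difference of 0.46 became −0.073, −0.062 and −0.11 on the first 3 of these. Between withdrawal and treated arrays, 70 became 5 and 4 (quantile, cyclic loess), and centring on controls called 4 higher (Cox4i2, Cox6a2, Cox6c-ps1 and Cox8b); the median of −0.79 became −0.084, −0.083 and 0.016. The F test called 69 as deposited, then 7, 6 and 1. Between withdrawal and untreated arrays, array weights called 50 and only the 6 arrays compared 3, and the median was −0.057 after centring on controls. Leaving out 1 array gave 4 to 42 members (treated minus untreated), 0 to 2 (withdrawal minus untreated), 62 to 71 (withdrawal minus treated) and 45 (without the second withdrawal array) to 70 (F test), with medians of 0.30 to 0.55, −0.40 to −0.20 and −0.88 to −0.64. The same after quantile normalization gave 0 to 6 members (1 without the first or the third untreated array, 2 without the third treated or any withdrawal array, 5 without the second treated array), 0 to 2, 1 to 6 (5 without the first treated or second untreated array) and 1 to 7 (5 without the second treated array). With the replicate number as a block, the counts were 44, 0 and 70 as deposited, and 2, 0 and 5 (F test 5) after quantile normalization. The shares of all tested probe sets called with an array left out, a block or only 6 arrays are not given here. The same holds for treated minus untreated arrays and the F test after centring on controls. Whether these changes in count are particular to the members was not tested. No other alternative (median centring, no filter, a stricter filter, trend with robust variance, averaging the probe sets of a gene, a size floor of 0.5) moved a count of calls by over 1.5 times.

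Single members turned sign as follows, in the order quantile, cyclic loess, controls. Ndufa11 was at 0.060, 0.083 and 0.14, Ndufb4 at 0.053, 0.025 and 0.065 and Uqcrc2 at 0.046, 0.064 and 0.14 for withdrawal minus untreated, against negative deposited values. Ndufc1 was at −0.34, −0.33 and −0.42 and Cox8a at −0.38, −0.41 and −0.37 for treated minus untreated, and Cox8a at 0.19, 0.21 and 0.19 for withdrawal minus treated. Ndufc1 was at −0.11 with array weights (treated minus untreated), and at 0.0065 after cyclic loess and 0.18 after centring on controls (withdrawal minus treated). Cox4i2 was at −0.013 with array weights (withdrawal minus treated). Centring on controls gave Ndufa5 −0.045, 0.042 and 0.087 (treated minus untreated, withdrawal minus untreated, withdrawal minus treated), Ndufs7 −0.012 (treated minus untreated) and Ndufb2 0.038 (withdrawal minus untreated). Dim probe sets limit the reading of Cox6a2, Cox7a1 and Cox8b.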

Other observations

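The annotation assigns 7 probe sets to a member and to another gene, most often a near copy. They hold Atp5mc1, Atp5mc2, Cox7a2, Cox5a, Ndufa10, Ndufs5 and Uqcrb, each with another gene, so a value cannot be given to 1 gene. Between withdrawal and treated arrays, limma called all 7 lower on the deposited scale, as were 32.6% of all tested probe sets and 78.7% of the brightest decile. The differences ran from −0.54 for the Atp5mc2 probe set to −0.85 for that of Ndufs5, a small subunit of complex I. After quantile normalization the differences ran from −0.17 for the Ndufa10 probe set to 0.23 for that of Atp5mc2, with adjusted p from 0.16 to 0.995. The shared probe set of Cox5a was brighter than the 1 that names Cox5a alone, and differed by −0.60 after withdrawal as deposited, against 0.01 for the other.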
